A study of Mus musculus with 7 samples.

Results

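Accessibility was described at 4 genes of tissue-resident macrophages: Timd4, Lyve1, Cd163 and Igf1. The members are every region that the deposited tables assign to these genes, 7 of the 5898 regions in the 7 tables. Timd4 has 3 of them, Cd163 has 2, and Lyve1 and Igf1 have 1 each. ATAC-seq marks open chromatin by where the Tn5 transposase can insert adapters, and the nuclei here came from FACS-sorted adipose tissue macrophages (adult C57Bl/6J males). The HFD-RD group (n = 2 libraries) had 11 weeks of high-fat diet (60% lipid) followed by 9 weeks of regular diet (10% lipid), a switch meant to bring weight loss. The HFD group (n = 3) ate the high-fat diet for 11 weeks and was taken at that point. RD-RD mice (n = 2) had regular diet alone for 20 weeks. HFD mice therefore differ from the other groups by 9 weeks of study time, and diet and time cannot be told apart in comparisons with them. The labels do not say whether libraries are separate animals or pools, so p-values measure only the spread between these libraries.

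Groups follow the titles and the diet labels. The source names give another diet for all 7 libraries, so which label is right was not settled here, and every direction below holds for the libraries as titled. The authors deposited only regions that differed between groups of these same libraries, so no test below is independent of that choice. Every deposited absolute log2 fold change is at least 1.00, at an adjusted p of 0.05 or less. The Benjamini–Hochberg adjustment used below runs over these chosen regions alone. It therefore does not correct for the regions that were left out, and it changes p little where most regions differ. At Igf1 it took p from 0.0144 to 0.0154 in HFD-RD against RD-RD and from 0.00278 to 0.022 in HFD-RD against HFD (limma). Reads recovered in the deposited regions ran from 889422 to 2807495 per library, and the 7 regions held 12 to 569 reads each per library. None of the 10 macrophage marker genes checked (Adgre1, Csf1r, Cd68 and others) has a deposited region, so the cell type of the sort could not be checked in these tables.

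TIM-4, the product of Timd4, binds phosphatidylserine on dying cells and is carried by long-lived macrophages that renew in the tissue. LYVE-1 binds hyaluronan and marks macrophages that lie along blood vessels, as well as lymphatic endothelium. CD163 takes up haemoglobin bound to haptoglobin. IGF-1 is a secreted growth factor made by resident macrophages and by many stromal cells. In obese fat, macrophages recruited from monocytes accumulate beside this resident pool. In bulk nuclei, fewer cells with an open site and less opening per cell cannot be told apart.

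The region over the Timd4 start is the one whose sequence the reference tables hold. It spans chr11:46810322-46810879 (GRCm38, 558 bp) and encloses the whole 250 bases before the start on the plus strand, chr11:46810549-46810798, shown here because the most strongly lowered of the 7 regions lies on them. The sequence is from RefSeq (GRCm38.p6), written 5′ to 3′, with capitals at matches to the motifs searched.
Timd4 promoter: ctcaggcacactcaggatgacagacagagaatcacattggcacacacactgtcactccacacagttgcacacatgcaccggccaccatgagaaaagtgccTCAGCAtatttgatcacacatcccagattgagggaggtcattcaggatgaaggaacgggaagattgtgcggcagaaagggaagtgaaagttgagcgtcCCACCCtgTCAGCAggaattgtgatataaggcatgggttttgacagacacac
Both strands were searched. TGCTGA is only a part of the recognition site of MAF factors, so a match to it is not a whole site. TGCTGA matched at 2 places on the minus strand, read above as TCAGCA, with first bases 150 and 44 bases before the start. CCACCC, a KLF-type motif, matched once on the plus strand, 52 bases before it. The 3 matches do not overlap. Of 32851 mouse promoters of the same length, 16.1% hold TGCTGA and 28.1% hold CCACCC, so neither is rare. GAGGAAGT (a PU.1 motif, in 2.44% of promoters), TGAGTCA (AP-1, 4.46%), TTGCGCAA (C/EBP, 0.164%) and CACGTG (an E-box, 6.02%) were not in this window. Each motif was searched only as the exact string given. Variant sites were not looked for, so lower case does not mean that a factor has no site there.

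Timd4 was less open in both obesity groups than in lean mice at all 3 of its regions. The region over the start had 41.9 and 16.7 normalized counts (reads divided by the library's size factor) in HFD-RD and 45.2, 46.1 and 53.3 in HFD, against 168 and 130 in RD-RD. The RD-RD libraries stand apart above all 5 others, and the lowest value is HFD-RD replicate 2, which held 18 reads there. The log2 difference was -2.43 ± 0.343 (SE) in HFD-RD against RD-RD, with 19.7% of the RD-RD mean left (limma, Benjamini–Hochberg over 5898 regions, adjusted p = 0.000167). It was -1.60 ± 0.313 (SE) in HFD against RD-RD (limma, adjusted p = 0.000889). The size in HFD-RD leans on the 2 libraries: without replicate 1 the difference was -3.07 and without replicate 2 it was -1.79, and both passed.

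The upstream Timd4 region, chr11:46804410-46804914 (505 bp, centre at -6138 bp from the start), had 52.9 and 31.5 normalized counts in HFD-RD and 51.0, 54.3 and 52.4 in HFD, against 151 and 117 in RD-RD. The intragenic one, chr11:46812323-46812857 (535 bp, centre at 1790 bp), had 36.5 and 32.4 in HFD-RD and 56.0, 37.0 and 46.4 in HFD, against 152 and 96.5 in RD-RD. In both regions the RD-RD libraries lay above every other library. The log2 differences of HFD-RD against RD-RD were -1.68 ± 0.256 and -1.79 ± 0.266 (SE), and those of HFD against RD-RD were -1.32 ± 0.234 and -1.38 ± 0.243 (SE), all past the threshold (limma, adjusted p = 0.00023, 0.000207, 0.000556 and 0.000539). For all 3 Timd4 regions the authors' deposited table gives the comparison that reads as HFD over RD-RD, with log2 fold changes of -1.35 upstream, -1.63 at the start and -1.41 inside the gene.

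The difference of HFD-RD from HFD did not pass at any of the 3 Timd4 regions. It was -0.36 ± 0.234 upstream (95% interval -0.87 to 0.16), -0.83 ± 0.313 at the start (-1.52 to -0.14) and -0.40 ± 0.243 inside the gene (-0.94 to 0.13) on the log2 scale (SE; limma, adjusted p = 0.269, 0.0745 and 0.229). These intervals, not adjusted for the number of regions, leave room for a further loss after weight loss of up to 1.52 at the start, and do not show that the groups are alike. Both HFD-RD libraries lay below all HFD libraries at the start and inside the gene, and only replicate 2 did upstream. Without HFD-RD replicate 2 the upstream difference was 0.0085 and the one at the start -0.19. Without HFD-RD replicate 1 they were -0.72 and -1.47, and only the one at the start passed (limma, adjusted p = 0.038).

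**Figure D1:**
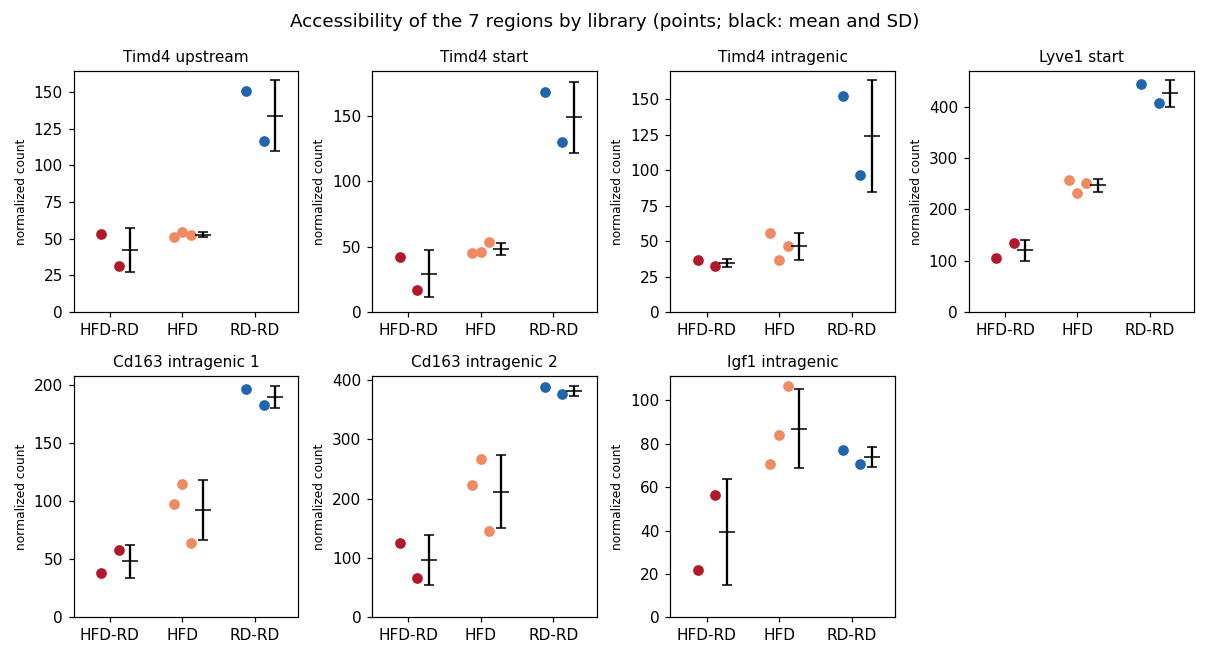
Normalized counts (y axis, linear from 0) of the 7 regions in each library of HFD-RD, HFD and RD-RD (x axis); points are libraries, black marks the group mean with its SD. RD-RD libraries are highest in the 6 regions of Timd4, Lyve1 and Cd163, and at Igf1 the HFD-RD libraries, at 21.9 and 56.5, lie below all others.

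Lyve1 was lowest after weight loss, with the HFD group between HFD-RD and RD-RD. Its region spans chr7:110862623-110863479 (857 bp) over the start of the gene, which runs on the minus strand. It had 106 and 135 normalized counts in HFD-RD and 257, 233 and 251 in HFD, against 445 and 408 in RD-RD, so no library of 1 group overlaps another group. The differences were -1.82 ± 0.206 in HFD-RD against RD-RD, -0.78 ± 0.188 in HFD against RD-RD and -1.04 ± 0.188 in HFD-RD against HFD on the log2 scale (SE; limma, adjusted p = 7.08e-05, 0.00268 and 0.00781). HFD-RD kept 28.3% of the RD-RD mean and HFD kept 58.0%. The authors' deposited table gives -1.79 for what reads as HFD-RD over RD-RD (adjusted p = 6.48e-19). Without HFD-RD replicate 1 the difference of HFD-RD from HFD was -0.86 and did not pass (limma, adjusted p = 0.0624).

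Cd163 showed the same order of group means at both of its intragenic regions. The first, chr6:124308921-124309336 (416 bp, centre at 4472 bp from the start), had 38.3 and 58.3 normalized counts in HFD-RD and 98.0, 115 and 64.5 in HFD, against 197 and 183 in RD-RD. The second and broader one, chr6:124311014-124312345 (1332 bp, centre at 7024 bp), had 126 and 66.7 in HFD-RD and 222, 267 and 145 in HFD, against 387 and 376 in RD-RD. In each region the 3 groups do not overlap, and HFD replicate 3 is the HFD library nearest to HFD-RD. The RD-RD pair is tight, at 190 ± 9.85 and 382 ± 8.16 normalized counts (mean ± SD, n = 2), whereas the HFD libraries spread over 92.6 ± 25.8 and 211 ± 61.4 (mean ± SD, n = 3).

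In HFD-RD against RD-RD the 2 Cd163 regions differed by -1.98 ± 0.290 and -2.05 ± 0.328, in HFD against RD-RD by -1.07 ± 0.265 and -0.89 ± 0.300, and in HFD-RD against HFD by -0.91 ± 0.265 and -1.15 ± 0.300 on the log2 scale (SE). All 6 passed (limma, adjusted p = 0.000193 and 0.000286, 0.00321 and 0.0156, 0.0317 and 0.0216). The authors' deposited table gives the second region -2.01 for what reads as HFD-RD over RD-RD and the first region -1.03 for what reads as HFD over RD-RD. The calls of HFD-RD against RD-RD held without any 1 library. The second region's call in HFD against RD-RD was lost without HFD replicate 3 (-0.65, limma adjusted p = 0.0572) or RD-RD replicate 1 (-0.87, limma adjusted p = 0.0634). In HFD-RD against HFD the first region did not pass without HFD-RD replicate 1 (-0.62), HFD replicate 1 (-0.85) or HFD replicate 2 (-0.74), and the second did not pass without HFD-RD replicate 2 (-0.70), HFD replicate 1 (-1.09) or HFD replicate 2 (-0.96).

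**Figure D2:**
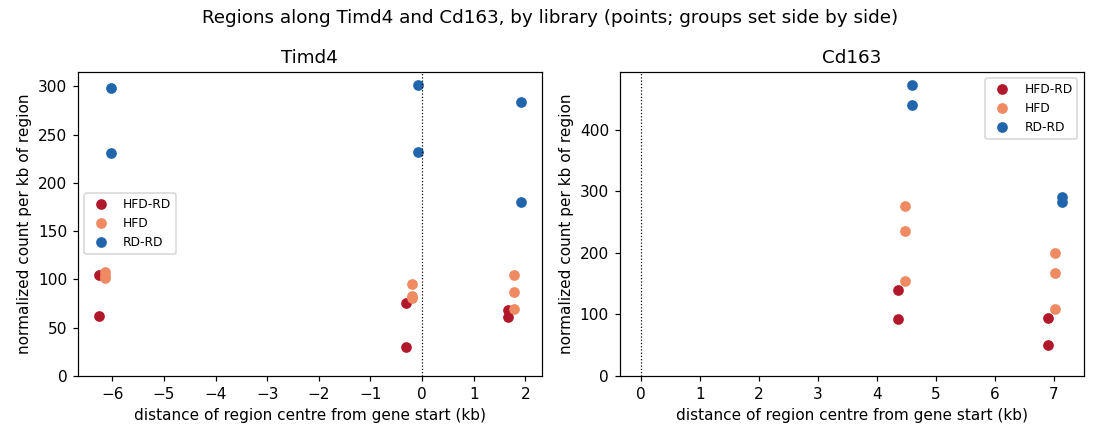
Normalized count per kb of region (y axis) against the distance of the region's centre from the gene start in kb (x axis) for Timd4 and Cd163; points are libraries, and the groups of a region are drawn slightly apart along the x axis for legibility. At the Timd4 start HFD-RD replicate 2, at 29.9 per kb, lies well below the HFD libraries at 80.9 to 95.5, and at Cd163 the HFD points lie between HFD-RD and RD-RD.

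Igf1 departed from the receptor genes in that HFD libraries were not low. Its region lies inside the gene, chr10:87889820-87890258 (439 bp, centre at 31774 bp from the start). It had 21.9 and 56.5 normalized counts in HFD-RD and 70.5, 83.9 and 107 in HFD, against 77.2 and 70.6 in RD-RD. HFD-RD lies below every library of the other groups, and HFD and RD-RD overlap. HFD-RD against HFD differed by -1.26 ± 0.330 and HFD-RD against RD-RD by -1.04 ± 0.361 on the log2 scale, both past the threshold, and HFD against RD-RD by 0.21 ± 0.330 with an interval of -0.51 to 0.94 (SE; limma, adjusted p = 0.022, 0.0154 and 0.539). The authors' deposited table gives 1.06 for what reads as HFD over HFD-RD (adjusted p = 0.0333), which is the opposite orientation of the same difference. The regions of Timd4, Lyve1 and Cd163 were deposited with comparisons to RD-RD instead. The departure of Igf1 from them is therefore not independent of how the authors sorted the regions.

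The Igf1 result rests on few reads, 12 in HFD-RD replicate 1 and 61 in replicate 2. Without replicate 1 the differences of HFD-RD were -0.59 from HFD and -0.38 from RD-RD, and neither passed (limma, adjusted p = 0.204 and 0.215), and without replicate 2 they were -1.92 and -1.71 and both passed. The call against HFD was also lost without HFD replicate 2 (-1.27, limma adjusted p = 0.0512) or HFD replicate 3 (-1.10, limma adjusted p = 0.0695), and the call against RD-RD without RD-RD replicate 1 (-0.98, limma adjusted p = 0.0616).

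**Figure D3:**
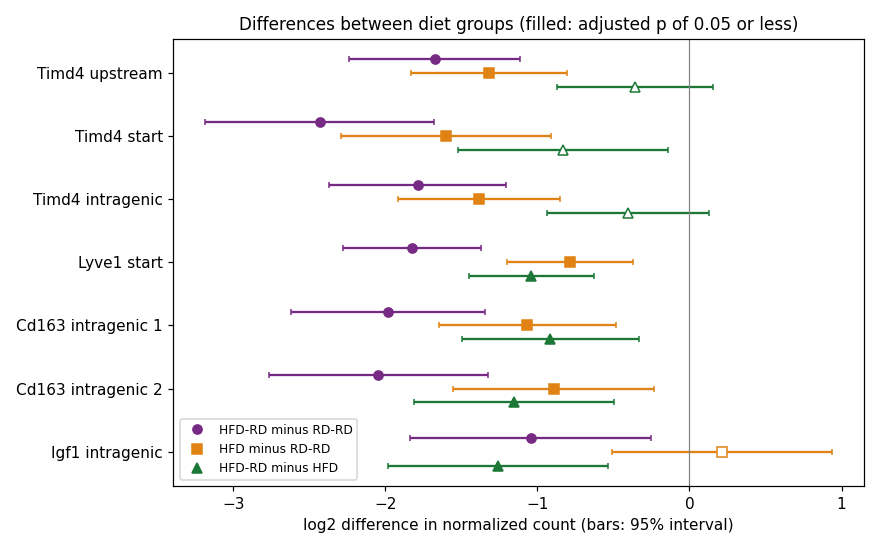
Log2 difference in normalized count (x axis) of each region in the 3 comparisons, with 95% intervals as bars; filled marks passed at an adjusted p of 0.05 or less. All 7 HFD-RD minus RD-RD marks lie left of 0, while the HFD minus RD-RD mark of Igf1 lies at 0.21 with an interval across 0.

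Counted over the 7 regions, HFD-RD was below RD-RD in 7, where 32.4% of all deposited regions were called lower and 64.8% higher. In HFD against RD-RD 6 were lower, beside 29% of all regions lower and 59.2% higher, and Igf1 did not pass. In HFD-RD against HFD 4 were lower, beside 12.8% of all regions lower and 10.2% higher, and the 3 Timd4 regions did not pass. The median log2 difference was -1.82, -1.07 and -0.91 over the 7 regions in these comparisons, and 1.03, 0.75 and -0.05 over all deposited regions. The HFD-RD and RD-RD libraries share no range in 7 of 7 regions, a pattern found with HFD-RD lower in 32.7% of all regions and higher in 65.4%. HFD and RD-RD did not overlap in 6, against 31.6% of all regions with HFD lower and 61% higher. HFD-RD and HFD did not overlap in 6, against 31.6% with HFD-RD lower and 27.9% higher. Comparisons that share the RD-RD libraries are not independent of each other, and the 3 regions of Timd4 and 2 of Cd163 are not independent of each other either.

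The order HFD-RD below HFD below RD-RD of the group means held for 6 of the 7 regions and for 29.1% of all deposited regions. Lyve1 and both Cd163 regions, 3 of the 7, were called lower in all 3 comparisons, as were 7.6% of all regions. The counts in HFD-RD against HFD depend on single libraries, with 1 to 4 of the 7 called lower when 1 library was left out: 1 without HFD replicate 2, and 2 without HFD replicate 1 or HFD-RD replicate 1. With equal totals per library 5 were called lower, the start of Timd4 included (-1.04, limma adjusted p = 0.0144). These totals cover the deposited regions only and lean on single large regions. The largest region held 9.95% to 15.0% of the reads in HFD-RD and RD-RD libraries and 5.49% to 7.25% in HFD libraries. That scaling moved the median of all regions by -0.21 in this comparison and raised the share of all regions called lower to 26.9%, with 6.12% called higher in place of 10.2%. It moved the median in HFD-RD against RD-RD by -0.19, with 32.9% of all regions lower and 62.1% higher, and in HFD against RD-RD by 0.02, with 28.3% lower and 60% higher. No region of the 4 genes changed direction under it.

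Place relative to the gene bears on these counts. Among the 309 deposited regions over a gene start, HFD-RD was called below RD-RD in 90.9%, HFD below RD-RD in 76.4% and HFD-RD below HFD in 36.9%. Lower starts of Timd4 and Lyve1 against RD-RD are thus what most start regions in these tables show. A call of lower in HFD-RD against HFD, as at Lyve1, was made for fewer start regions, though 36.9% is above the 12.8% of all deposited regions. Of the 2087 deposited regions inside genes, 25.6%, 23.1% and 10.4% were called lower in the same comparisons, beside which stand the intragenic regions of Timd4, Cd163 and Igf1. By size in HFD-RD against RD-RD, 0.865% of all deposited regions had a lower log2 difference than the start of Timd4, 2.29% and 2.76% than the Cd163 regions, 4.09% than Lyve1, 4.41% and 5.85% than the intragenic and upstream Timd4 regions, and 26.8% than Igf1. In HFD-RD against HFD it was Igf1 with 0.882% and the second Cd163 region with 1.48% that lay farthest down. Igf1 was deposited with that same comparison, where the authors kept only absolute log2 fold changes of at least 1.00, so its low place there follows from their choice. Lyve1 and the second Cd163 region were likewise deposited with HFD-RD over RD-RD, which bears on their places in that comparison.

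**Figure D4:**
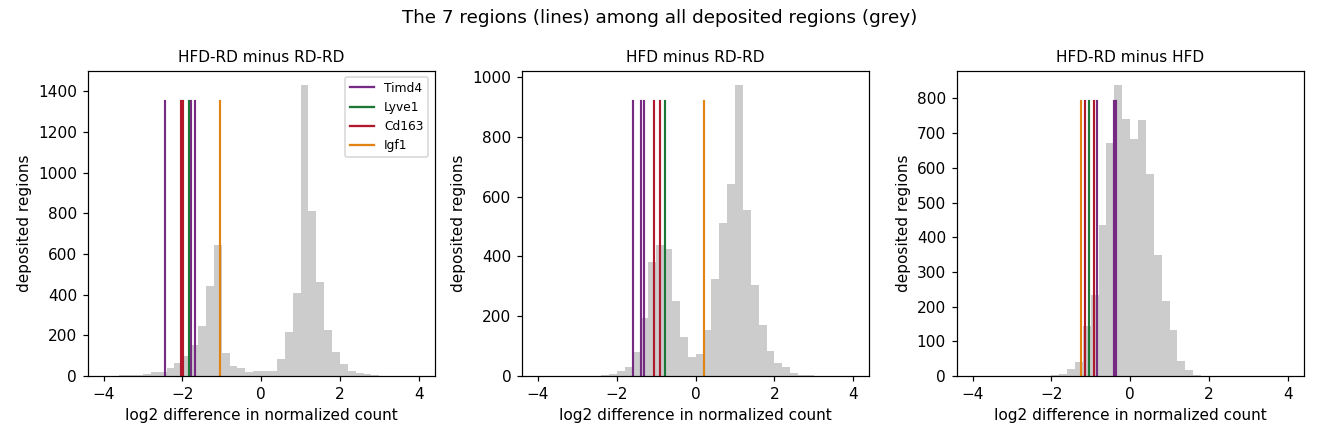
Histograms of the log2 difference in normalized count over the 5898 deposited regions (grey; y axis, number of regions) in the 3 comparisons, with the 7 regions as coloured lines. The lines of Timd4, Lyve1 and Cd163 lie within or below the lower of the 2 peaks in the comparisons with RD-RD. The authors kept only regions past a log2 fold change of 1 in the comparison of a table.

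Levels between genes were compared per kb of region. In RD-RD the start of Lyve1 was highest with 497 ± 30.7 normalized counts per kb, followed by the first Cd163 region with 456 ± 23.7 (mean ± SD, n = 2 each). The libraries of these neighbours do not overlap, and no test was run between regions. The second Cd163 region had 286 ± 6.13, the Timd4 regions 267 ± 48.9 at the start, 265 ± 47.7 upstream and 232 ± 73.3 inside, and Igf1 had 168 ± 10.7 (mean ± SD, n = 2 each). The second Cd163 region and the Timd4 regions overlap in their spread. In HFD-RD all 7 lay between 52.5 and 141 normalized counts per kb on average. There Lyve1 with 141 ± 24.2 and the first Cd163 region with 116 ± 34.0 were again highest and overlap, and the start of Timd4 was lowest with 52.5 ± 32.0 (mean ± SD, n = 2 each).

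The authors number regions in order of coordinate. The 3 Timd4 regions have consecutive numbers and lie within 8448 bp, and so do the 2 Cd163 regions, so no other numbered region separates them. The nearest deposited region of another gene below Timd4, inside Cyfip2 and 521 kb away, was higher in HFD-RD than in RD-RD with a log2 difference of 1.13, and 17 numbered regions between them were not analysed here. On the other side the nearest one, over the start of Tgtp1 and 2181 kb away, was lower (-1.53), in the same direction as Timd4, with 26 numbered regions between. On either side of Cd163 the nearest ones, near C1s1 (a complement protease gene) and Vmn2r26, were higher by 1.59 and 1.05. The nearest one to Igf1, inside Nup37 at 261 kb, was higher by 1.91. Lyve1 has a closer neighbour, a region 33.7 kb away assigned to Gm16336, which was lower in HFD-RD than in RD-RD and HFD, with -1.43 and -1.17, and did not pass in HFD against RD-RD with -0.27 (limma, adjusted p = 0.237).

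Across the 7 libraries the 3 Timd4 regions moved together, with Pearson's r of 0.918 to 0.983 on log2 values. The Cd163 regions correlated at 0.875 with each other and the first of them at 0.936 with Lyve1, while Igf1 correlated at 0.707 with Lyve1, at 0.587 and 0.382 with the first and second Cd163 regions, and at 0.209 to 0.318 with the Timd4 regions. These values describe 7 shared libraries in 3 groups and carry no test. The regions of other genes most like the Timd4 start were assigned to Gm5129 (r = 0.997), Spon1 (0.994), an extracellular matrix protein gene, and Lrrn3 (0.993). For Lyve1 they were Ccdc57 (0.998), Hrh1 (0.997), a histamine receptor gene, and Slc16a12 (0.997), a transporter gene. The keratin genes Krt8 (0.992) and Krt18 (0.988) and BC051665 (0.987) came closest to the first Cd163 region, and Plaat5 (0.967), Shisa8 (0.966) and Anp32a (0.955) to Igf1. A correlation of 0.95 or more was reached by 213 deposited regions for Timd4, 406 for Lyve1, 130 for Cd163 and 3 for Igf1.

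Other genes of resident macrophages, from a list of 44 that leaves out the 4 genes above, had 31 regions at 21 genes. Of these 21 were lower and 10 higher in HFD-RD than in RD-RD, with a median log2 difference of -1.10. Of all deposited regions 32.4% were lower and 64.8% higher, with a median of 1.03. In HFD against RD-RD 18 were lower, 8 higher and 5 did not pass (median -0.62), beside 29% of all deposited regions lower and 59.2% higher. In HFD-RD against HFD 9 were lower, 2 higher and 20 did not pass (median -0.44), beside 12.8% of all deposited regions lower and 10.2% higher. HFD-RD differed most from RD-RD at the starts of the C-type lectin genes Cd209f (-2.89 ± 0.267), Cd209d (-2.78 ± 0.202) and Cd209a (-1.82 ± 0.192, SE), a lectin that dendritic cells also carry. Of all deposited start regions 90.9% were called lower in this comparison. The 10 higher regions included those upstream of F13a1 (1.22 and 1.19) and Cd5l (1.24) and inside Folr2 (0.64). With equal totals per library, where 26.9% of all deposited regions were lower, the count of lower regions in HFD-RD against HFD was 16. It was 4 without HFD-RD replicate 1, 3 without HFD-RD replicate 2, 2 without HFD replicate 1, 3 without HFD replicate 2 and 5 without HFD replicate 3.

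Genes that share a function with the receptors were mostly called higher against RD-RD, as were most deposited regions, so counts are read beside those shares. Of all deposited regions 64.8% were higher and 32.4% lower in HFD-RD against RD-RD. In HFD against RD-RD these shares were 59.2% and 29%, and in HFD-RD against HFD 10.2% and 12.8%. Of 29 regions at 11 genes of apoptotic cell uptake, the process TIM-4 serves, 26 were higher and 2 lower in HFD-RD than in RD-RD, 26 higher and 2 lower in HFD than in RD-RD, and 2 higher in HFD-RD than in HFD. They included Anxa1 (1.97 ± 0.244), a phospholipid-binding protein gene, Lrp1 (1.75 ± 0.391), an endocytic receptor gene, and Stab2 (1.52 ± 0.278, SE), a scavenger receptor gene that binds phosphatidylserine and hyaluronan. Of the 14 hyaluronan regions 10 were higher and 3 lower in HFD-RD than in RD-RD, 11 and 3 in HFD, and in HFD-RD against HFD 0 were higher and 1 lower. Besides Stab2 these were led by Layn (1.33 ± 0.423), a hyaluronan receptor gene, and Hapln1 (-1.31), a link protein gene. The median differences, 1.09 and 0.96 for these lists in HFD-RD against RD-RD, lie near that of all deposited regions, 1.03. In HFD against RD-RD the list medians were 1.03 and 1.04, above 0.75 over all deposited regions. Against RD-RD a larger part of the apoptotic cell uptake regions was higher than of all deposited regions, in both comparisons. Several of these regions share a gene, so they are not independent of each other, and no set test was run.

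Of 18 regions of haemoglobin and iron handling, the setting of CD163, 11 were higher and 6 lower in HFD-RD than in RD-RD, 10 and 6 in HFD, and 2 and 0 in HFD-RD against HFD. These counts and those of the next list lie near the shares of all deposited regions in HFD-RD against RD-RD, 64.8% higher and 32.4% lower. Their medians there were 0.94 and 0.74 beside 1.03 over all regions. In HFD against RD-RD 59.2% of all deposited regions were higher and 29% lower, and in HFD-RD against HFD 10.2% and 12.8%. Steap4, a metalloreductase gene, was lower at its start (-2.20 ± 0.275), and Lrp1 and Slc11a1 (1.60 ± 0.242, SE), a metal ion transporter gene of phagosomes, were higher. Of 28 regions of insulin-like growth factor signalling 17 were higher and 10 lower in HFD-RD than in RD-RD, 18 and 9 in HFD, and 1 and 2 in HFD-RD against HFD. A region inside Irs1, which encodes an adaptor of the insulin and IGF-1 receptors, was lower in HFD-RD than in RD-RD by the most in that list (-2.79 ± 0.278), Igfbp5, a gene of an IGF-binding protein, was lower (-1.56 ± 0.198) and Stat5b, a factor downstream of growth hormone, was higher (1.56 ± 0.263, SE). In HFD-RD against HFD this region inside Irs1 was lower (-1.55), while the start of Irs1 (-0.40) and a region upstream of it (0.50) did not pass (limma, adjusted p = 0.00706, 0.126 and 0.0618).

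Markers of other cell types were checked because Lyve1 also marks lymphatic endothelium and Igf1 is also expressed by stromal cells. No marker of monocytes, NK cells, mast cells and eosinophils or large peritoneal macrophages had a region, so these cell types could not be looked at. Of 68 marker genes 18 had 27 regions. In HFD-RD against RD-RD 10 were lower and 17 higher, in HFD against RD-RD 9 lower and 15 higher, and in HFD-RD against HFD 3 lower and 1 higher. Of all deposited regions 32.4%, 29% and 12.8% were lower and 64.8%, 59.2% and 10.2% higher in these comparisons. The marker counts against RD-RD thus lie near the shares of all regions. Their summed level ran from 6162 to 6434 normalized counts in HFD-RD and 6296 to 6586 in HFD, against 5920 to 6092 in RD-RD. HFD-RD differed most from RD-RD at a region assigned to Cdh5 (-2.55 ± 0.227), an endothelial cadherin gene, with its centre at -160742 bp from the start. Next came Cd209a and Siglech (-1.70 ± 0.245, SE), a gene of plasmacytoid dendritic cells. Of 6 lymphatic markers only Pdpn had regions, 2, both higher in HFD-RD than in RD-RD, and Prox1, Flt4 and Reln had none. The Pdpn regions summed to 341 to 357 normalized counts in HFD-RD and 236 to 319 in HFD, against 148 to 194 in RD-RD, the opposite direction to Lyve1. Dendritic cell, fibroblast and progenitor, B cell and neutrophil markers had lower summed levels in HFD-RD and HFD than in RD-RD, the direction of the 6 receptor regions. The 4 regions of dendritic cell markers, at 4 of 8 genes, summed to 348 to 432 normalized counts in HFD-RD and 402 to 468 in HFD, against 815 to 892 in RD-RD, with 2 lower and 2 higher in HFD-RD than in RD-RD. The 2 fibroblast and progenitor regions, at 2 of 9 genes, summed to 661 to 792 in HFD-RD and 553 to 725 in HFD, against 1211 to 1344 in RD-RD: Dpp4 was lower and Pdgfrb higher, and Pdgfra and Col1a1 had none. The 4 regions of B cell markers, at Ebf1 (3, all lower in HFD-RD than in RD-RD) and Ms4a1 (1, higher), summed to 452 to 478 in HFD-RD and 499 to 564 in HFD, against 598 to 700 in RD-RD. The neutrophil marker region, near Csf3r, had 126 to 128 in HFD-RD and 160 to 175 in HFD, against 248 to 277 in RD-RD, and was lower in HFD-RD than in RD-RD. T cell, blood endothelium and adipocyte markers had higher sums in HFD-RD and HFD. The 5 T cell regions lie at 2 of 7 genes, Il7r and Cd4, most of them at Il7r, and Cd3d, Cd3e and Cd8a had none. All were called higher in HFD-RD than in RD-RD. They summed to 1959 to 2037 in HFD-RD and 1851 to 2051 in HFD, against 916 to 1034 in RD-RD. The 8 blood endothelium regions, 5 higher and 3 lower, summed to 1630 to 1676 in HFD-RD and 1623 to 1759 in HFD, against 1452 to 1507 in RD-RD. The adipocyte region, at Fabp4 and higher, had 557 to 622 in HFD-RD and 688 to 820 in HFD, against 309 to 369 in RD-RD. A missing region means only that no region there met the authors' threshold. The part of other cell types in the results at the 4 genes was not tested.

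**Figure D5:**
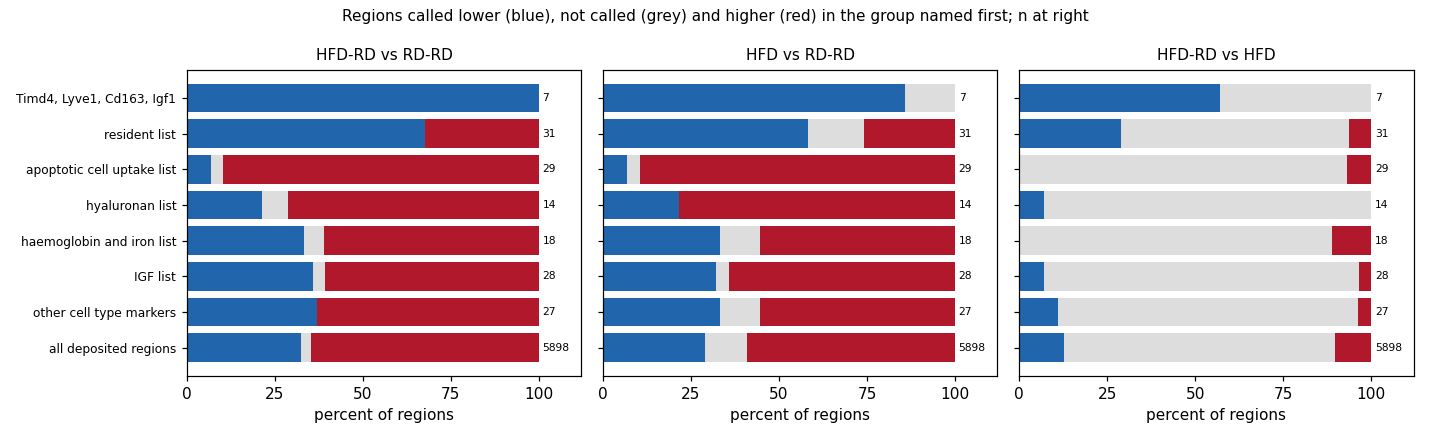
Share of regions (x axis, percent) called lower (blue), not called (grey) and higher (red) in the group named first, for the 4 genes, the gene lists and all deposited regions, in the 3 comparisons; the number of regions stands at the right. The 4 genes and the resident list are mostly lower in both comparisons with RD-RD, where 32.4% and 29% of all regions were.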

How the data were processed

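The 7 deposited tables are parts of a Venn diagram of regions assigned to their nearest gene. The deposited signal is, from its values, the read count of a region divided by 1 size factor per library (size factors 0.548 to 2.21), given by the authors as normalized counts; dividing each library's values by its smallest unit gave whole numbers in 100% of cases (tolerance 1e-06). The authors also deposited a log2 fold change with its error, a score (their Wald statistic) and a p-value, raw and adjusted. Each table holds 1 comparison, unnamed in the headers, which was read from the group means whose log2 ratio lies nearest. Per the submitters' processing notes, Picard, deepTools, MACS2 2.0.10, DESeq2 and GRCm38 were used, in roles not given in the sources used here. 

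Values were put on the scale log2(normalized count + 1) and tested in R 4.3.3 by limma 3.58.1, without a filter on low values, with the 3 groups in 1 fit (4 residual and 7.2 prior degrees of freedom), two-sided, with Benjamini–Hochberg adjustment over 5898 regions at 0.05. A log2 difference on this scale understates changes of low regions. Errors are limma's SE, or the SD between libraries. The same code was tested on simulated data. Alternatives changed the pseudocount, a minimum mean, the scaling, the groups in the fit, the variance model, the replicate block and each library in turn; limma with voom weights on the recovered reads was added after the data were seen.

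The members and the gene lists were chosen with earlier results of these data known. All 7 regions are named. From each list the 3 genes with the largest absolute difference in HFD-RD against RD-RD are named (1 region per gene). From likeness the 3 genes with the highest correlation to the member region nearest the start are named. F13a1, Cd5l and Folr2 of the resident list were added after their values were seen, to show regions that were higher. The other marker genes named serve the cell type check. Promoter sequences matched for Timd4, Cd163 and Igf1 of the 4 genes, and only that of Timd4 lies in a deposited region.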

Additional observations from a re-analysis of the deposited data

How the results depend on the processing

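The 7 regions were recomputed under 15 alternatives. In HFD-RD against RD-RD 103 of 105 values kept direction and call, and the 2 others were both at Igf1. In HFD against RD-RD 102 of 105 did, the 3 others at the second Cd163 region. In HFD-RD against HFD 91 of 105 did: 11 lost the call, 2 gained it and 1 turned direction, the upstream region of Timd4 without HFD-RD replicate 2 (0.0085, against -0.72 without HFD-RD replicate 1). Leaving out 1 library, 6 to 7, 5 to 6 and 1 to 4 of the 7 regions were called lower in these comparisons. Of the resident list, 2 to 9 regions were then called lower and 0 to 2 higher in HFD-RD against HFD; with equal totals these were 16 and 1, and with the replicate block 3 and 0. The cause was not tested; the fits without 1 library have fewer libraries, the equal-total fit uses all 7, and with the block HFD replicate 3, the only library of its number, adds nothing to the differences.

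Replicate numbers recur across groups, but the labels do not tie them to shared animals or days, so the numbers are used here to name libraries only. Deviations of same-numbered libraries from their group mean correlated at -0.07 to 0.06. In a group of 2 libraries these deviations mirror each other, so the correlations are not separate values. Whether same-numbered libraries shared a day or batch was therefore not settled. With the replicate block the second Cd163 region in HFD against RD-RD (-0.65) and Igf1 in HFD-RD against HFD (-1.10) did not pass. The 3 alternatives with count models were not run: the deposited values are normalized, and a check of their low values did not accept the recovered reads as counts. Limma with voom weights was run on those reads instead, chosen after seeing the data, and called 4 of the 7 regions lower in HFD-RD against HFD. With 2 or 3 libraries per group and 12 to 569 reads per region and library, small differences were not detectable.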

Other observations

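Hmox1, which encodes the enzyme that breaks down haem taken up with haemoglobin through CD163, moved unlike Cd163; it was chosen after its values were seen. The region inside the gene had 120 ± 26.0 normalized counts in HFD-RD (mean ± SD, n = 2) and 45.5 ± 4.57 in HFD (n = 3), against 109 ± 3.92 in RD-RD (n = 2). It was lower in HFD than in RD-RD (-1.25 ± 0.20), higher in HFD-RD than in HFD (1.37 ± 0.20) and did not pass in HFD-RD against RD-RD (0.12 ± 0.219, log2 with SE; limma, adjusted p = 0.000367, 0.00438 and 0.6). Over the same groups Cd163 was lowest in HFD-RD.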
